A study of Drosophila melanogaster with 2 samples.

Results

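Divergent gene pairs are genes that face away from each other from start sites so close together that both read out of a single stretch of DNA. The summits described here are the points of highest signal of sisA-eGFP ChIP-seq peaks that lay in such stretches. A summit was taken when it lay 0 to 500 bp upstream of the nearest protein-coding transcription start site (TSS) and a protein-coding gene of the opposite strand started within 1000 bp upstream of that TSS. Of the 5133 summits on chromosome arms in the authors' conservative peak list, 681 met the rule, which is 13.3% of the list and 42.7% of the 1596 summits that lay 0 to 500 bp upstream of a nearest coding TSS. The other 915 upstream summits had no head-to-head coding partner and served for comparison, and the remaining 3537 summits lay elsewhere. In the annotation, 6184 of 19607 coding start sites, or 31.5%, had a head-to-head coding partner within 1000 bp. A start site shared by several genes is counted there for each gene.

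The chromatin came from whole Drosophila melanogaster embryos aged 0 to 18 h of the sisA-GFP strain, in which a transgene encodes the protein sisA fused to enhanced green fluorescent protein. An antibody against GFP precipitated the fusion protein after sonication to fragments of 200 to 800 bp. There were 2 biological replicates of this 1 group, with no second genotype, age or treatment, and neither the sex of the embryos nor the regulation of the transgene is stated. The embryos were pooled over tissues and over most of embryonic development, so a summit cannot be placed in a cell type or at an age, and the libraries' read depth is unknown. The labels name the strain as an insertion targeting sisA and do not say whether the endogenous gene was intact.

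As background, sisA is a basic leucine zipper (bZIP) protein known as an X-linked signal element of sex determination, which helps to switch on Sex-lethal in early female embryos. Head-to-head pairs are frequent in the compact fly genome and often hold housekeeping genes, such as those of ribosomes, mitochondria and basal transcription. Their shared promoters often carry the DNA replication-related element (DRE), which the factors DREF and BEAF-32 bind. Closely spaced divergent promoters are also frequent places of open chromatin, where many proteins are found by ChIP.

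The DNA between the start sites can be read whole where the gap is narrow. The 5 strongest summits in gaps of up to 300 bp that are shown here, from arms 2L, 3L and 3R, let a reader see how little sequence separates the genes. Each line gives the plus strand of dm6 from 5′ to 3′, starting 1 base after the TSS of the minus-strand gene and ending 1 base before that of the plus-strand gene, with the 21 bases around the summit in capitals.
CG7601 and CIA30, chr3R:29736746-29736964: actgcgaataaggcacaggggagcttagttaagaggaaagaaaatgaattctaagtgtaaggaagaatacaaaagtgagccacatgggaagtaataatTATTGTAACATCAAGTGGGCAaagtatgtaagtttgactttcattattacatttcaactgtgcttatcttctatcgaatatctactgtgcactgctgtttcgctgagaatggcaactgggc
Tcs5 and CHMP2B, chr3L:5139396-5139618: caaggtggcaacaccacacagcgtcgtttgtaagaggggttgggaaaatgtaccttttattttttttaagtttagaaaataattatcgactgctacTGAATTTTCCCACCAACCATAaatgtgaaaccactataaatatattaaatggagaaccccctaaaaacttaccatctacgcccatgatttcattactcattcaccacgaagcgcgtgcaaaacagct
Atat and Shc, chr3L:9426759-9427009: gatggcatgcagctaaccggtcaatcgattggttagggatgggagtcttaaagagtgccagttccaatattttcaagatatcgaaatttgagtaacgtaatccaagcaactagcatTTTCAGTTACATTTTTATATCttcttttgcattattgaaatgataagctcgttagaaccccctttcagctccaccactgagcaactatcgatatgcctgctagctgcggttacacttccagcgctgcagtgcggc
Art3 and mRpS10, chr3R:15229409-15229664: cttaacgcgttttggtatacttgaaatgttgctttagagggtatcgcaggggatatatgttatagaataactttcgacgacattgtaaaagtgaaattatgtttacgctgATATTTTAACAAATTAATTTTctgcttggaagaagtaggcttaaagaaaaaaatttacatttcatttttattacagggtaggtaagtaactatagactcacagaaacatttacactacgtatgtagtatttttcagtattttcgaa
CG13390 and CG17294, chr2L:8376798-8377034: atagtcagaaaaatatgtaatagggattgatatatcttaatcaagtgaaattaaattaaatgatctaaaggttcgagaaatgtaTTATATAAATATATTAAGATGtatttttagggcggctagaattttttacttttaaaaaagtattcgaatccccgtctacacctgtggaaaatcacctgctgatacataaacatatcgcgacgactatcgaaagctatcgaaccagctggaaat

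The summits sat near the middle of the gap in all but the last of these, 109, 107, 127, 121 and 95 bases from the left end in the order shown. The GC content of the gaps ran from 30.1% between Art3 and mRpS10 to 43.0% between Atat and Shc. Each gap held the BEAF-32 core word CGATA on one strand or the other at least once, with 3 matches in each of the Atat and Shc and the CG13390 and CG17294 gaps, and 1 of the 5 held a whole DRE, between Atat and Shc.

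The strongest summit of the conservative list lay off centre in a wider gap, 35 bp from the TSS of Ugalt and 684 bp from that of eIF2Bbeta. The stretch next to Ugalt is shown with the 21 summit bases in capitals, and it held no CGATA, DRE or TATAAA.
Ugalt and eIF2Bbeta, chrX:2703853-2704007: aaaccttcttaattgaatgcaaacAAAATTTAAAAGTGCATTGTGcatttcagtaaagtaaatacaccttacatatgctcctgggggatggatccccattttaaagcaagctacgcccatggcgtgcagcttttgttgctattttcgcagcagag

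The next 3 stretches are the strongest other summits on these arms and X with a DRE inside the gap, shown because the DRE did not lie at the summit itself. The DRE is in capitals and the summit is the base at position 41 of each line.
fws and Lamtor3, chr2L:17481099-17481230: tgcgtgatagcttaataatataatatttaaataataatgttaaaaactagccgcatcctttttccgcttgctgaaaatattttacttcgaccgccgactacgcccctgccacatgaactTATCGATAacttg
Chd1 and Bem46, chr2L:2987975-2988113: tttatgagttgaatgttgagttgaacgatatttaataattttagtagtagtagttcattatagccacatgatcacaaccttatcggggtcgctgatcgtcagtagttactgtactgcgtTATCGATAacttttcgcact
Cht11 and CG4558, chrX:6849628-6849769: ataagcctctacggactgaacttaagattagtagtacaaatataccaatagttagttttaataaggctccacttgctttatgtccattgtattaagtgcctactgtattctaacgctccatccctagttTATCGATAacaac

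The DRE centre lay 82.5 bp from the summit at Lamtor3 and at Bem46 and 92.5 bp from it at CG4558, each time between the summit and the start of the plus-strand gene. The signal values were 893 in the conservative list, 499 in replicate 1 and 407 in replicate 2 at fws and Lamtor3. They were 376, 193 and 170 at Chd1 and Bem46. At Cht11 and CG4558 they were 322, 170 and 149. Lamtor3 is a subunit of the lysosomal complex that anchors growth signalling, Chd1 is a chromatin remodelling ATPase and Cht11 belongs to the chitinase family.

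The signal value of a peak is the authors' own number for how strongly it stood out, on a scale the sources used here do not state, and it served only to rank peaks within a list. Replicate values are those of the strongest summit within 100 bp in each replicate's own ranked list. The summit between Ugalt, a transporter that carries UDP-galactose into the Golgi, and eIF2Bbeta, a subunit of a translation initiation factor, was first in the list at 3554, with 1912 in replicate 1 and 1660 in replicate 2. The summit between CG7601 and CIA30, an assembly factor of mitochondrial complex I, had 2642 in the conservative list, 1478 in replicate 1 and 1203 in replicate 2. That between Tcs5, a kinase of the tRNA-modifying KEOPS complex, and CHMP2B, a membrane-remodelling ESCRT protein, had 2528, 1373 and 1170. In each of these pairs replicate 1 held the larger value and both replicates placed the summit in their own thresholded list.

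In 3 of the 9 strongest pairs a gene encodes a mitochondrial ribosome protein, while the median signal over that list's 21 genes with a summit was 173, near the 170 of all the summits. The summit between mRpL41 and CG8079 had 2471 in the conservative list, 1387 in replicate 1 and 1086 in replicate 2. The summit shared by CenG1A, a GTPase-activating protein for Arf proteins, and mRpS23 had 1992, 1074 and 924. The one between Art3, an arginine methyltransferase, and mRpS10 had 1937, 1132 and 804. These 3 gaps measured 762, 492 and 257 bp, so the strongest signals were not restricted to narrow gaps.

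The other 3 of the 9 strongest lay in pairs of varied function. The summit between Shc, an adaptor of receptor tyrosine kinases, and Atat, a tubulin acetyltransferase, had 2127 in the conservative list, 1110 in replicate 1 and 1025 in replicate 2. The summit between CG5611 and Mtl, a Rac-like GTPase, had 2123, 1189 and 945, and that between PNPase, a mitochondrial RNA-degrading enzyme, and Gprk2, a kinase of G protein-coupled receptors, had 1959, 1067 and 915. All 9 were among the 20 strongest peaks of the whole list, in which the 915 upstream summits with no partner held 3 places. Among the 100 strongest peaks each class held 28.

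Places 10 to 20 among the summits between divergent genes ran from 1473 between CG13390 and CG17294 down to 1134 between SLIRP2 and Mkk4, a stress-pathway kinase. They included CG5098 with CG5757, DUBAI with Tmem18, CG3552 with CG3437, Mnat9 with CG1792, Pal1 with Pdrg1, and Bulli with CG10147. The gap between l(2)gd1, an endosomal regulator of Notch, and Reps held a summit of 1240. That between Arl1, a Golgi GTPase, and brm, the ATPase of a SWI/SNF remodeller, held one of 1164. That between Mppe and pds5, a cohesin regulator, held one of 1146. Replicate 1 was higher than replicate 2 in all 20 but the DUBAI and Tmem18 pair, where the values were 653 and 698.

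**Figure D1:**
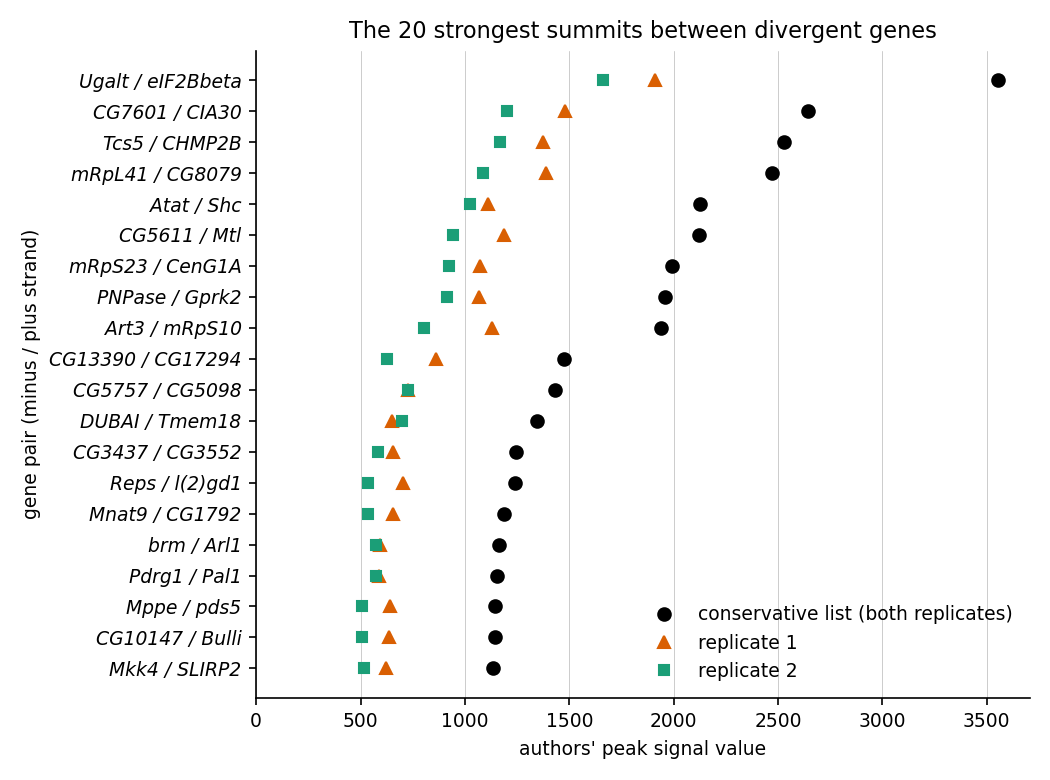
Authors' peak signal value (horizontal axis, no stated unit) of the 20 strongest summits between divergent genes, by gene pair, in the conservative list (circles), replicate 1 (triangles) and replicate 2 (squares). The Ugalt and eIF2Bbeta summit stands apart at 3554, and the order of the pairs is similar in both replicates.

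Over all 681 summits the signal value had a median of 170, with quartiles of 111 and 304, against a median of 155 with quartiles of 99.7 and 287 for the 915 upstream summits with no partner and a median of 128 for the whole list. The median summit between divergent genes ranked at percentile 64.1 of the list, with a 95% binomial interval of 60.3 to 67.6, and the upstream summits with no partner at 60.2, with an interval of 56.5 to 64.4. The intervals overlap. Regions of the same pair of libraries are not replicates, so these and the other comparisons between sets of regions are given as descriptions with no test.

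Summits between divergent genes made up larger shares of the stronger peaks. The list was cut by signal value into 4 groups of 1283 or 1284 peaks, numbered from the strongest. The summits between divergent genes made up 250, 205, 139 and 87 peaks of groups 1 to 4, from 19.5% of group 1 to 6.78% of group 4. Upstream summits with no partner followed the same order, with 321, 226, 211 and 157. The divergent share of all upstream summits was 43.8%, 47.6%, 39.7% and 35.7% in groups 1 to 4.

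Replicate 1's own thresholded list held 601 of the 681 summits within 100 bp, and replicate 2's held 515. Over all 5133 conservative summits the shares were 75.8% in replicate 1 and 62.0% in replicate 2. Both lists held 492, or 72.2%, where both held 57.5% of all conservative summits and 67.7% of the upstream summits with no partner. Replicate 1 alone held 109, replicate 2 alone held 23 and neither held 57. The share moved with signal, from 99.2% of the 250 summits in group 1 to 3.45% of the 87 in group 4. In group 2 it was 90.2% for summits between divergent genes, 90.3% for upstream summits with no partner and 91.2% for the rest, and in group 3 it was 40.3%, 40.8% and 37.5%. In group 4 the shares were 3.45%, 5.10% and 0.866%. The 95% Wilson intervals of the 3 classes overlap in groups 2 and 3, and in group 4 the interval of upstream summits with no partner, 2.60 to 9.73, does not overlap that of the rest, 0.456 to 1.64.

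**Figure D2:**
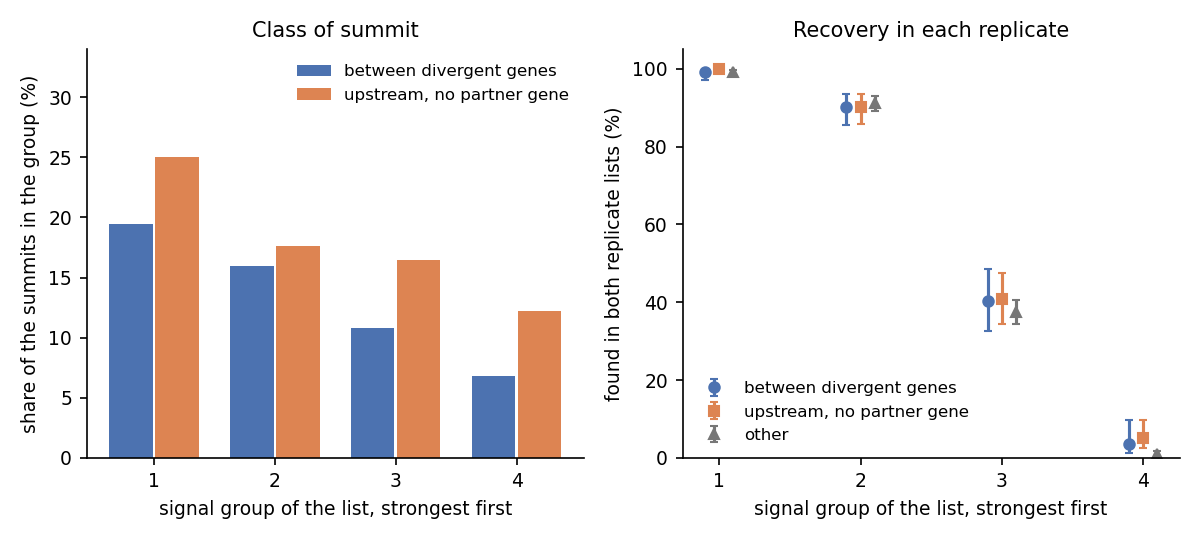
Left, the share (%) of summits in each of the 4 signal groups of the conservative list, strongest first, that lay between divergent genes or upstream of a gene with no partner. Right, the share (%) of each class found in both replicates' own lists, with 95% Wilson intervals, which falls from 99.2% to 3.45% for summits between divergent genes and nearly overlays the other classes.

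The 2 replicates ordered the summits alike: over the 657 with a value in both ranked lists, Spearman's rho between the replicates was 0.90, as a description across regions of the same libraries. It was 0.87 over 4847 summits of the whole list. The list had already passed a threshold on agreement between the replicates, so part of this likeness follows from how the peaks were selected.

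A few members rest on little signal of their own. The peaks of 13 members overlapped a stronger conservative peak, as did 136 of the 5133 in all, and 10 of the 13 had no summit within 100 bp in the ranked list of either replicate. None of the 13 was in both thresholded lists. Their signal values ran from 2.04 between Droj2 and mRpS21 to 98.0 between SH3PX1 and vsg. In 11 of the 13 the stronger peak was itself a summit of the same gene pair, so leaving out all 13 peaks lowered the count of summits to 668 and the share of pairs with a summit only from 25.7% to 25.6%.

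The annotation held 2667 pairs of protein-coding genes that start head to head within 1000 bp, which took in 5052 of the 13945 protein-coding genes, or 36.2%. A summit of the set lay between 685 of these pairs, 25.7%, with a 95% Wilson interval of 24.1 to 27.4. Of the 8893 coding genes with no partner, 769 had an upstream summit, or 8.65%, with an interval of 8.08 to 9.25. A gap serves a pair of genes and the windows differ in length, so the shares are not per base. The 681 summits fell in 651 sets of facing genes, 29 of which held more than 2 genes because start sites coincide.

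The share of pairs with a summit was highest at intermediate distances between the start sites. Pairs were classed by the smallest distance between facing start sites, and a summit was counted where it lay in that gap. It was 1 of 181 pairs at 1 to 50 bp and 41 of 456 pairs, 8.99%, at 51 to 150 bp. Counting summits between any facing start sites of the same genes, it was 17 of 181 and 63 of 456. It was 31.7% of 391 pairs at 151 to 250 bp, 34.8% of 526 at 251 to 350 bp and 32.7% of 441 at 351 to 500 bp. In wider gaps the counts were 93 of 422 pairs at 501 to 750 bp and 40 of 250 at 751 to 1000 bp. The Wilson intervals of the 3 classes from 151 to 500 bp overlap each other, and none of them overlaps the interval of any narrower or wider class. The narrow gaps are shorter than a peak, whose median width was 340 bp, and a summit just past the TSS of a neighbour falls outside the rule, so a low share there does not show that no peak covered the gap.

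**Figure D3:**
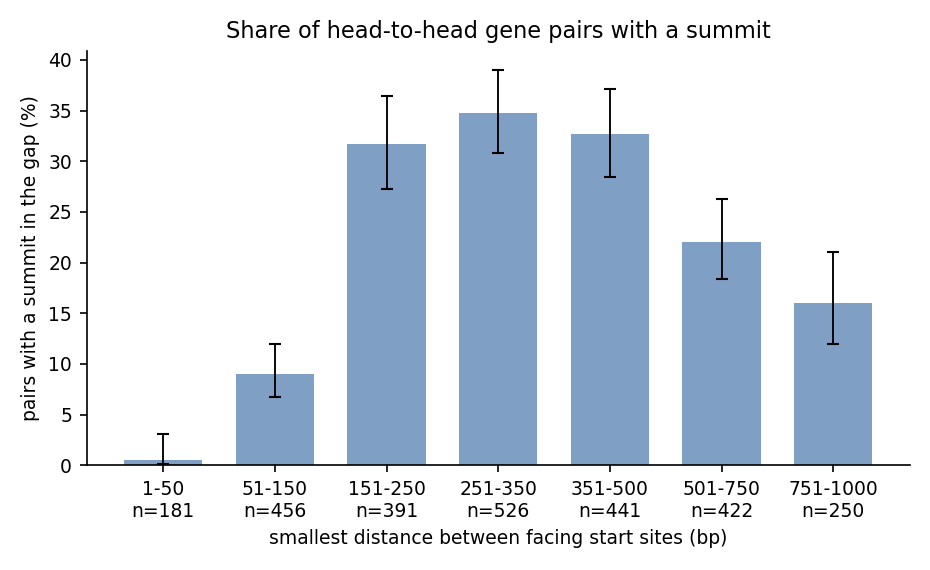
Share (%) of annotated head-to-head gene pairs with a summit in the gap, by the smallest distance between facing start sites (bp), with 95% Wilson intervals and the number of pairs per class. The share is 0.552% at 1 to 50 bp, 34.8% at 251 to 350 bp and lower again in wider gaps.

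Leaving aside the 1 summit in a gap of up to 50 bp, signal was highest in gaps of 151 to 350 bp. The median signal value was 137 for the 39 summits in gaps of 51 to 150 bp, 208 for the 120 at 151 to 250 bp and 200 for the 194 at 251 to 350 bp. It was then 154, 137 and 160 in the 3 wider classes of 162, 116 and 49 summits. The quartiles overlap widely, for example 128 to 326 at 151 to 250 bp and 100.1 to 224 at 501 to 750 bp, and over all members Spearman's rho between gap and signal was -0.16.

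The narrowest gap, 8 bp between CG17260 and SerRS, the seryl-tRNA synthetase, held a summit of signal value 516. The next was 52 bp between lok, the checkpoint kinase Chk2, and barr, a condensin subunit, with 86.9. At the other end, a gap of 999 bp between hts, the adducin of the membrane skeleton, and CalpA, a calpain protease, held a summit of 92.3, and the gap of 977 bp between CG30015 and nclb held one of 114. Just outside the limit lay Nep1 with raptor at 1004 bp and a signal value of 84.9, and Eno, the glycolytic enolase, with Rrp40 at 1015 bp and 548. The 1015 bp are measured from an alternative start site of Eno. The closest facing start sites of Eno and Rrp40 lie 269 bp apart, a pair inside the limit with no summit of the set. The limit of 500 bp on the distance to the TSS left no member near it, since the farthest summit lay 402 bp upstream, at CG13058.

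Summits kept close to a start site. The median distance to the nearer TSS was 96 bp, with quartiles of 65 and 129 bp, and 640 of 681 lay under 200 bp. For upstream summits with no partner it was 191 bp, with quartiles of 120 and 297 bp, and 493 of 915 lay under 200 bp. A summit between paired genes cannot lie farther from the nearer TSS than the middle of the gap, which sets part of this difference. In the widest gaps, 751 to 1000 bp, where that limit binds least, the median distance was still 121 bp, with quartiles of 76 and 166 bp, and the other TSS lay a median of 720 bp away. In gaps of 151 to 250 bp the medians to the nearer and the other TSS were 80.5 and 137 bp. The nearer gene was on the plus strand for 354 summits and on the minus strand for 327.

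**Figure D4:**
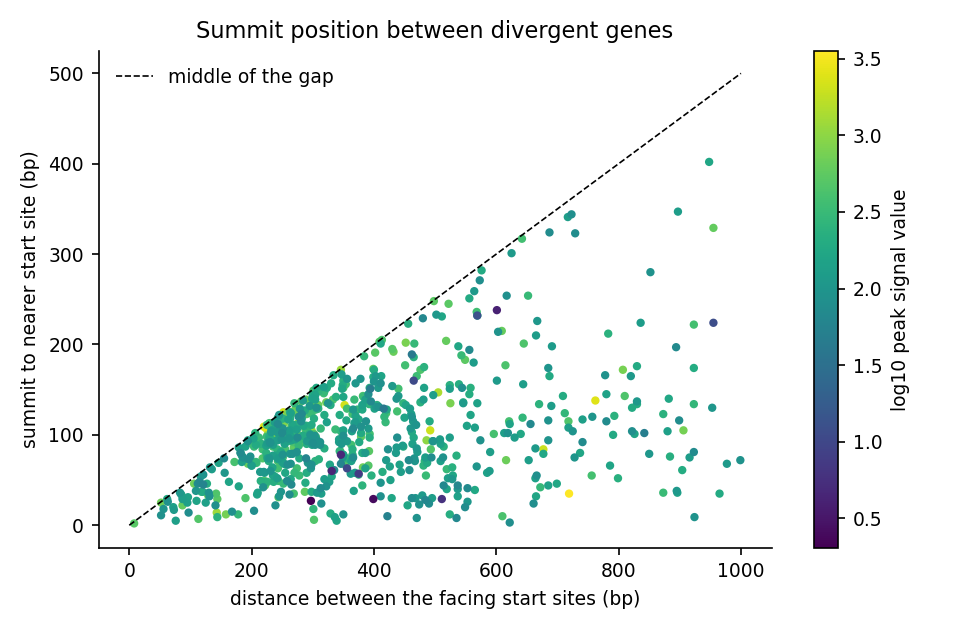
Distance from the summit to the nearer start site (bp) against the distance between the facing start sites (bp) for the 681 summits, coloured by log10 of the peak signal value. Points near the dashed line lie in the middle of the gap, and in gaps wider than 350 bp the points have medians of 112 to 121 bp per gap class instead of following the line.

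In 30 gene pairs there were 2 summits, and none had more. The peaks overlapped in 11 of these, which are among the 13 weak overlapping peaks above, and were apart in 19, in 16 of which the summits were nearest to different genes of the pair. The strongest such pair was CG5098 and CG5757, with a summit of 1433 at 147 bp from CG5098 and another of 80.0 at 16 bp from CG5757. Dp1 and imd, an adaptor of immune signalling, had summits of 790 and 130, which lay 1852 bp apart at alternative start sites of Dp1. Ank2 and Mcad had 585 and 11.8, CG11267 and MICAL-like had 450 and 135, and Atg2 and CG12093 had 466 and 4.36, the last with overlapping peaks. In 5 of the 30 pairs the summits were farther apart than the gap, because genes with several start sites face each other more than once.

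By arm, 3R held 186 summits, 3L 151, 2R 144, 2L 115 and X 85. The share of head-to-head pairs with a summit was 29.0% on 3L, 27.1% on 2R, 26.5% on 3R, 23.6% on 2L and 21.6% on X. The Wilson intervals of neighbours in this order overlap, and those of 3L and X overlap as well, at 25.2 to 33.0 and 17.8 to 25.9. Chromosome 4 had 11 pairs and no summit, which at 3 counts of 11 allows a share of up to 27.3%, and its Wilson interval reaches 25.9%.

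Gene families that often sit head to head were compared with all genes of head-to-head pairs, of which 1333 of 5052, or 26.4%, had a summit in their pair. The genes of the cytoplasmic ribosome stood above this at 26 of 53, or 49.1%. This was not particular to pairs. Of the 33 genes of this list with no partner, 8 had an upstream summit, or 24.2%. The share was 8.65% over all coding genes with no partner. Of the paired ribosomal genes with strong summits, RpL32 with CG7943 had a signal value of 657 in the conservative list, 360 in replicate 1 and 293 in replicate 2. The summit of RpL34b with CG8132 had 577, 308 and 268, that of RpS27 with Nup37 had 533, 277 and 255, and that of RpS20 with CG17271 had 424, 221 and 196. Although many ribosomal protein genes carried a summit, the median signal over the 26 genes was 129, below the median of 170 of all the summits.

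Genes of the mitochondrial ribosome had a summit in 21 of 59 cases, 35.6%, with a median signal of 173. After mRpL41, mRpS23 and mRpS10 came mRpS2, paired with Mon1, at 517. The tRNA synthetases, which charge tRNAs with amino acids, had one in 8 of 22, led by GluProRS, which shares its gap with AP-1sigma, at 723. SerRS followed at 516, IleRS with Hem at 339 and ThrRS with Patsas at 305. Translation factors had a summit in 7 of 29, 24.1%, and after eIF2Bbeta the strongest were eIF3c at 413, eIF5B at 288 and eRF3 at 216.

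In the transcription machinery, Mediator and general transcription factor genes had a summit in 12 of 38, 31.6%. The strongest were MED27 with elm at 688, Taf5 with Pex6 at 430, MED17 with CG12321 at 379 and MED30 with Rev1 at 362. RNA polymerase subunits had one in 5 of 19, 26.3%, near the share of all paired genes. Polr2B, the second largest subunit of polymerase II, had 446 in its gap with 140up, and Polr2J and Polr3E had 372 and 230. Splicing genes had 7 of 31, 22.6%, with Sf3b6 at 280, LSm1 at 193, SF2 at 187 and snRNP-U1-C at 175.

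DNA replication genes had a summit in 7 of 24, 29.2%. PolD2, a subunit of DNA polymerase delta, had the strongest at 987, with 541 in replicate 1 and 471 in replicate 2. RnrS, the small subunit of ribonucleotide reductase, had 434, Mcm2, a subunit of the replicative helicase, had 305 in its gap with RPA1, and dup, the licensing factor Cdt1, had 155 in its gap with SRPK. Membrane traffic genes had 20 of 63, 31.7%, led by Vps33B at 643, Vps36 at 450, alphaCOP at 423 and Snx21 at 361.

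Energy and protein turnover genes were near or below the share of all paired genes. The respiratory chain had 9 of 45, with ND-MWFE at 583, ND-ASHI at 533, ND-51 at 306 and COX5B at 197. Each of these named summits lay nearer to the TSS of the partner gene. That of COX5B was 37 bp from the TSS of IFT52 and 261 bp from that of COX5B. In the other lists, too, a summit in the pair can lie nearer to the partner gene. The proteasome had 7 of 26, 26.9%, with Rpn3 at 283, Rpn6 at 216, Prosbeta2 at 173 and Prosalpha3 at 159. Genes known only by a CG number had 401 of 1757, 22.8%, with the strongest at CG7601, CG8079, CG5611 and CG13390.

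The chemosensory receptor and cuticle lists had few genes in pairs, where 36.2% of all coding genes were in one. Of 179 chemosensory receptor genes 26 were in a pair and 2 of these had a summit, Gr32a with Idua at 103 and Ir60e with CG13585 at 89.1. Of 95 cuticle genes 5 were in a pair and none had a summit. At 3 counts of 5 this allows a share of up to 60%, which is only a rough limit with so few genes.

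Of the sex determination genes 6 of 19 were in head-to-head pairs and 2 had a summit. Between fl(2)d, a splicing cofactor of Sex-lethal in the RNA methylation complex, and CG13339 the signal value was 306, with 159 in replicate 1 and 149 in replicate 2. Between vir, a partner of fl(2)d in that complex, and Ice1 it was 168, with 80.1 and 80.9. A further peak in the vir gap had 5.86, overlapped the stronger one and had no summit of either replicate within 100 bp. The paired genes her, ix, msl-2 and snf had no summit in their gap. The gap between msl-2 and ND-PDSW is 45 bp, narrower than a peak, so this does not show that no peak covered it. At 2 of 6, the count stands beside 26.4% of all paired genes and is too small to set it apart.

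Of 21 bZIP genes 4 were in pairs. Irbp18, a C/EBP-related factor, shares a gap of 226 bp with APP-BP1, where the summit had 285 in the conservative list, 165 in replicate 1 and 125 in replicate 2. REPTOR-BP, crc and maf-S had none. Of 24 names of promoter and insulator factors 6 did not match the annotation as spelled. Among these, GFZF, Zw5, Putzig and Z4 are further names of gfzf, dwg and pzg, which were listed under those symbols. CP190 and Pita were not looked up further. Of the 18 matched, 10 were in pairs and 2 had a summit. M1BP, which binds the promoter word known as Motif 1, had 216 in its gap with CG8202, and gfzf had 197 in its gap with Sas-4. Dref, Chro, Trl, Ibf1, Ibf2, ewg, pzg and su(Hw) had none. The gap between Dref and RpL13, at 84 bp, is also narrower than a peak.

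Sequence was read in windows reaching 100 bp to each side of each summit and in equal windows centred 500 bp to its left and right. Motifs were searched on both strands by exact letters. The share of all 19253 windows of that length centred 100 bp upstream of distinct coding start sites that held each motif is given beside it. The other TSS lay a median of 241 bp from the summit, with an upper quartile of 379 bp. Most flank centres therefore lay past a start site and not in the gap, which holds for every comparison with flanks below. The GC content of the summit windows had a median of 34.3%, against 49.8% and 48.8% in the flanks, 35.3% for upstream summits with no partner and 38.8% for the windows at all coding start sites. Flanks of upstream summits with no partner had a median of 43.8% on either side. The part of this difference in base composition in the shares of single words was not tested.

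The DRE, TATCGATA, was found at 71 of the 681 summits, 10.4%, with a 95% Wilson interval of 8.35 to 12.9, against 0.734% and 1.47% of the left and right flanks, 2.95% of upstream summits with no partner and 6.21% of the windows at all coding start sites. In the middle of the 1982 head-to-head gaps that held no summit it was found in 8.88%. For the 685 pairs with a summit, the middle of the smallest gap held it in 7.59%. In some of these pairs the summit lay between other start sites of the same genes. Among pairs with a smallest gap of 151 to 500 bp the shares were 8.55% with a summit and 5.62% without, whose intervals overlap. The BEAF-32 core CGATA, which lies inside the DRE, was found at 46.5% of summits, 23.6% and 22.8% of the flanks, 29.3% of upstream summits with no partner, 36.6% of all start site windows and 41.9% of the middles of gaps without a summit. Read at the middle of the smallest gap, as for the DRE, it was found in 39.6% of the pairs with a summit. At 151 to 500 bp the middles held it in 39.1% of pairs with a summit and 38.5% without, so it was no more frequent there.

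The DRE was not centred on the summit. The median distance between the DRE and the summit was 52.5 bp, with quartiles of 30.5 and 80.5 bp, in a window that reaches 100 bp to each side, and 30 of the 71 lay within 50 bp. It lay between the summit and the nearer TSS in 46, beyond that TSS in 7 and on the upstream side in 18. Summits with a DRE had a median signal of 151, and the 610 without had 173. With the members themselves cut into 4 groups from the strongest to the weakest, 8 of 171, 22 of 170, 16 of 170 and 25 of 170 held a DRE. In the same order the median GC content rose from 31.8% to 32.8%, 35.3% and 37.3%.

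**Figure D5:**
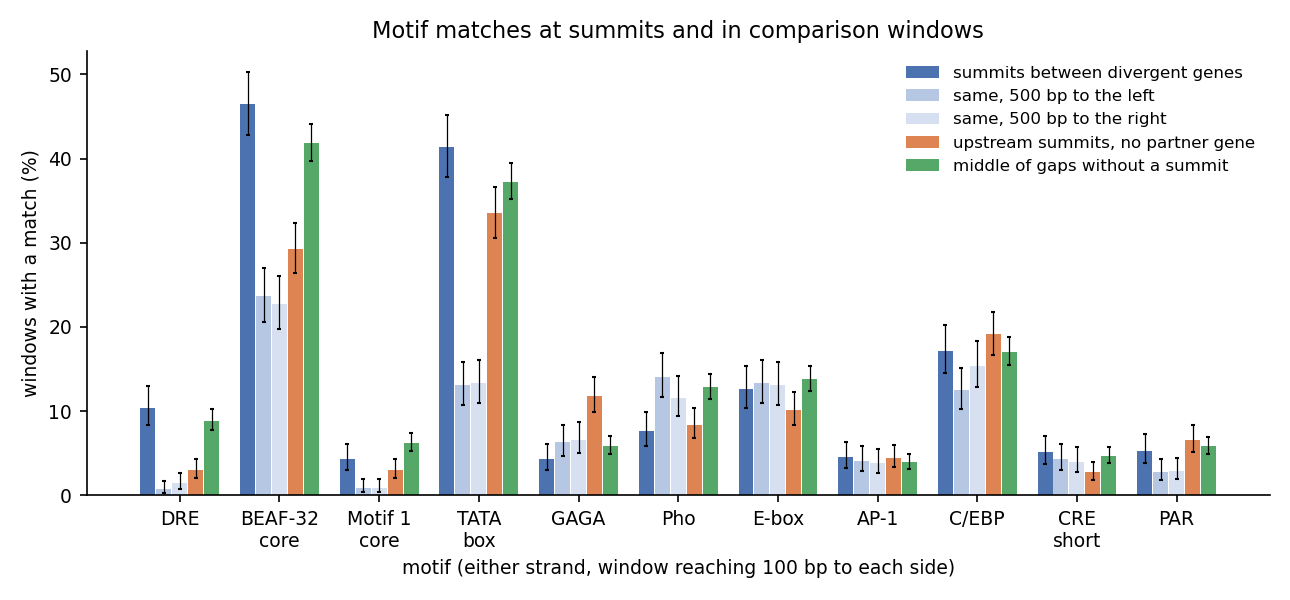
Share (%) of windows reaching 100 bp to each side with a match to each motif on either strand, with 95% Wilson intervals, at the 681 summits between divergent genes, 500 bp to their left and right, at upstream summits with no partner gene and in the middle of head-to-head gaps without a summit. The DRE reaches 10.4% at the summits and 8.88% in gaps without a summit, and the PAR word is found at 5.29% of the summits, 2.79% and 2.94% of their flanks and 5.85% of gaps without a summit.

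Words that bZIP proteins are known to bind were read in the same way. The AP-1 word TGANTCA was found at 4.55% of summits and in 4.11% and 3.82% of the flanks, and 4.17% of all start site windows held it. The C/EBP word TTGCNNAA was found at 17.2%, 12.5%, 15.4% and 15.4% in the same order. The shorter CRE word TGACGT had 5.14%, 4.26%, 3.96% and 4.50%, and the whole CRE, TGACGTCA, which contains it, was found at 4 summits. At upstream summits with no partner and in the middles of gaps without a summit, the C/EBP word was found at 19.1% and 17.1%. In these 2 sets the AP-1 word had 4.48% and 3.94%, and TGACGT had 2.73% and 4.69%. The PAR word TTACNTAA was found at 36 of the 681 summits, 5.29%, with a 95% Wilson interval of 3.84 to 7.23, and in 19 and 20 of the flanks, 2.79% and 2.94%. It was found in 4.17% of all start site windows, 6.56% of upstream summits with no partner and 5.85% of the middles of gaps without a summit. The absence of a word says only that these letters are not in the window, and sisA's own binding sequence was not derived here.

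Among other promoter words, the TATA word TATAAA was found at 41.4% of summits, 13.1% and 13.4% of the flanks, 33.6% of all start site windows and 37.3% of the middles of gaps without a summit. The Motif 1 core GGTCACAC was found at 4.26% of summits, 0.881% of either flank and 3.33% of all start site windows, and in 6.26% of the middles of gaps without a summit. Between summit windows and the middles of gaps without a summit, these differences did not hold in gaps of 151 to 500 bp. There TATAAA was found at 42.4% of summits and 42.6% of the middles without one. The Motif 1 core was found at 4.41% and 3.15%, and for both words the intervals overlap. Read at the middle of the gap in both sets, TATAAA was found in 51.5% of such pairs with a summit, with an interval of 47.0 to 56.0. Without a summit the interval was 39.4 to 45.9, which does not overlap it. The Motif 1 core was found in 2.78% of the middles with a summit. The GAGA word GAGAGA was found at 4.26% of summits, below the 11.8% of upstream summits with no partner and the 11.1% of all start site windows, with 6.31% and 6.61% in the flanks and 5.90% in the middles of gaps without a summit. The Pho word GCCATT was found at 7.64% of summits and 11.9% of all start site windows, and zeste's TGAGTG at 4.99% and 9.05%. The E-box words CAGCTG and CACGTG were found at 86 and 19 summits, 12.6% and 2.79%, and in 2313 and 422 of all start site windows. Zelda's CAGGTA had 4.55% and 4.35%, and the NRF-1 core CGCATGCG was found at 3 summits.

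The 10 words of 6 bases with the largest excess at summits over flanks in the rest of the list were all made of A and T, and were read in the same windows of the members. AAAATA was found at 63.1% of the summits between divergent genes and 20.04% of their flanks, TTAAAA at 55.2% and 16.6%, AAATAT at 53.2% and 17.3% and ATTTTA at 52.1% and 14.8%. The other 6 were found at 37.2% to 58.9% of the summits. In the middles of gaps without a summit TTAAAA reached 52.4% and AAAATA 59.7%.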

How the data were processed

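The authors deposited narrowPeak lists on dm6, per the labels, for each biological replicate and for both replicates together after an irreproducible discovery rate (IDR) threshold. The deposited signal value of each peak was used as the authors' own measure. For the aligner, peak caller, signal scale and control, nothing is given in the sources used here; a control library was not used here. Start sites came from Ensembl release 115 (BDGP 6.54) and sequence from the RefSeq Release 6 assembly. All peak ends fell within its chromosome lengths. Gene names were matched by symbol.

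The conservative list was classed with Python 3 scripts (numpy, pandas and scipy), which were first tested on simulated data with known answers. A summit matched another list within 100 bp. Replicate signals came from the ranked lists and found or not found from the thresholded lists, which held 4751 and 3485 peaks. Shares carry Wilson intervals and medians binomial order-statistic intervals at the 95% level, which cover counting error only. There is 1 group, so no test between conditions was possible.

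The members, the 17 gene lists and the 16 motifs were chosen with earlier results of these data known. Named genes are those of the 20 strongest members, up to 4 per gene list with the strongest member, every member gene of the sex determination and bZIP lists, up to 5 pairs with several members and those next to the limits. 1 gene that this rule names is not reported here. The promoter and insulator factors with a member, and paired genes without one, were all named. The 10 words of 6 bases were ranked in summits that are not members, and 4 of them are spelled out.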

Additional observations from a re-analysis of the deposited data

How the results depend on the processing

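The 681 summits ranged from 455 above the list's median signal to 831 with the partner within 2000 bp, with 516 for a partner within 500 bp and 571 for a single TSS per gene. Their share of upstream summits, 42.7%, was 45.4% for peaks above the list's median signal, 32.3% and 52.1% with the partner within 500 and 2000 bp, 52.2% and 37.1% with the summit within 250 and 1000 bp, and 45.8% with a single TSS per gene. The share of pairs with a summit, 25.7%, was 17.7% above the median signal, 23.9% with the partner within 2000 bp and 23.7% with a single TSS. Replicate 2's list alone and replicate 1's list alone gave, in that order, 20.4% and 26.7% of pairs, 532 and 705 summits, 44.0% (both lists) of upstream summits, median percentiles of 57.7 and 59.96, median distances of 95 and 99 bp and a DRE in 10.5% and 9.65%. The median percentile within the stronger peaks was 54.9. The share in both replicate lists, 72.2%, was 67.6% in the longer IDR list and 95.2% above the median signal. The median distance to the nearer TSS was 101 bp with the partner within 2000 bp, and the share with a DRE was 4.11% in windows reaching 50 bp to each side. The other values stayed within the main value's interval, or within 1.5 times the main count, including all 7 without overlapping peaks, an alternative chosen after seeing the data. The cause of these moves was not tested, apart from those that change the set counted. No paired analysis was possible because there was 1 group. Read depth and control signal were not used here, and 2 libraries of 1 group limit precision.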

Other observations

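Of the 915 upstream summits with no protein-coding partner, 51, or 5.57%, lay at a start site with a noncoding gene head to head within 1000 bp. Their median signal value was 144 and their median gap was 502 bp. The strongest lay between eIF6, a ribosome biogenesis and initiation factor, and asRNA:CR45928, with a signal value of 1346 and a gap of 29 bp, followed by brwl with lncRNA:CR44149 at 919 and CG13631 with lncRNA:CR45650 at 668. These genes were chosen after their values were seen.

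Some words with G or C, also picked after their values were seen, were frequent at the summits between divergent genes. CGATAG was found at 26.3% of them, 5.58% of their flanks, 10.8% of upstream summits with no partner and 17.0% of the middles of gaps without a summit. TATCGA was found at 27.3%, 7.20%, 13.2% and 25.8% in the same order. ACAGTG was found at 16.9% of the summits between divergent genes and 8.74% of their flanks, and at 21.8% and 8.37% in the rest of the list. ACACTG was found at 19.7% and 8.22%, and at 19.6% and 7.51% in the rest of the list. At upstream summits with no partner and in the middles of gaps without a summit, ACAGTG had 22.4% and 9.49%, and ACACTG 18.7% and 13.6%.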
